A study of Mus musculus with 12 samples.

Results

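The mRNAs of 10 cytosolic heat shock chaperones (Hspa1a, Hspa1b, Hspa8, Hsp90aa1, Hsp90ab1, Hspb1, Hspb2, Hspb8, Dnajb1 and Hsph1) were followed in C2C12 cells through differentiation and Bach1 silencing. The members were all probes of the deposited table that carry 1 of these 10 gene symbols, which gave 17 of the 56605 probes on the array and 10 of its 27306 gene symbols. C2C12 is an established line of myoblasts, the precursors of muscle fibres, from a C3H mouse, and it fuses into myotubes when serum is lowered. The cells were transfected with a control siRNA (siControl) or an siRNA against Bach1 (siBach1, the siBach1-2 of the study), and RNA was taken at confluence before differentiation was induced (day 0) or at day 2 after the change to medium with horse serum. The 4 groups were therefore siControl day 0, siBach1 day 0, siControl day 2 and siBach1 day 2, each with 3 arrays and each array hybridised with Cyanine 3-labelled RNA of 1 sample. All groups, the controls included, had been transfected the day before differentiation would start, there was no untransfected group, and silencing rested on 1 siRNA, so that its effects beyond Bach1 cannot be told apart from those of Bach1.

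Cytosolic chaperones hold unfolded or damaged proteins and help them to fold. HSP70 proteins bind exposed hydrophobic stretches in a cycle that J-domain proteins (HSP40) start and HSP110 proteins end, HSP90 takes over partly folded clients such as kinases and the myosin motor, and small heat shock proteins keep unfolded proteins and cytoskeletal filaments from aggregating. Stress raises many of these genes through the heat shock factor HSF1, which binds repeats of a short unit upstream of them, and developing muscle uses several small heat shock proteins and HSP90 cochaperones to build its sarcomeres. Bach1 represses genes with antioxidant response elements, Hmox1 among them.

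Values are log2 signals relative to the 75th percentile of the same array, so that 0 stands for a probe as bright as that percentile, and levels are compared for 1 probe across arrays and never between probes. A difference passed the test where limma, fitted to all 29664 probes that were well above background on every array of at least 1 group, gave a Benjamini-Hochberg adjusted p under 0.05. Of the 17 member probes, 16 were tested, and each of these was well above background on all 12 arrays. The untested one, Hsp90aa1 probe A_55_P2352652, was above background on 0 arrays and is not described further. The leading probe of a gene is its brightest tested probe. Counts and medians of the members are over probes, so that Hspa8, Hsph1 and Hsp90aa1, with several tested probes each, weigh more in them. Probes of near-identical paralogs or processed copies, such as Hspa1a and Hspa1b or the many relatives of Hspa8, may also have bound transcripts of those copies. The array number, 3 a group, limits the precision, and nothing in the labels says whether replicates came from separate cultures, so that p-values measure the spread between these samples.

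The arrays were comparable in quality, with 47.6% to 58.9% of the probes well above background, 75th percentile signals from 325.5 to 534.4 and 0 saturated spots. The silenced gene followed its labels. The Bach1 probe was lower in siBach1 cells at day 0 (log2 fold change -1.77, standard error, SE, 0.11, limma adjusted p = 1.2e-05) and at day 2 (-1.97, SE 0.11, adjusted p = 1.4e-05), with no overlap between siRNAs on either day. Of 8 myoblast and myotube markers, 6 were well above background on all arrays, Myf5 was on 8 of them and Mymk had no probe. The summed linear signal of the 6 at day 0 was 109 with siControl and 125 to 135 with siBach1. At day 2 it was 703 to 729 and 478 to 542, and each of the 6 had a lower group mean with siBach1. The siRNA groups thus differed in muscle markers at day 2, and the part of this in the silencing comparisons was not tested. Of the 5 macrophage markers, Ptprc, Csf1r, Itgam and Cd68 were above background on all arrays and Adgre1 on none. The summed linear signal of these 4 at day 0 was 17.1 to 20.7 with siControl and 17.9 to 20.1 with siBach1. At day 2 it was 25.2 to 33.6 and 20.9 to 32.2. This sum leans on Itgam, the brightest of these markers in every group, and does not show a change shared by all of them. By group means, Itgam was higher at day 2 with either siRNA, whereas Ptprc and Cd68 were lower. Csf1r was higher with siControl and lower with siBach1. The part of these markers in the changes with differentiation below was not tested. Of the 4 endothelial markers, Cdh5, Kdr and Tek were above background on 0 arrays and Pecam1 on 11. Of the 4 adipocyte markers, Adipoq was above it on 0 arrays, Cidec on 2, Plin1 on 10 and Lep on 12. Of the 4 osteoblast markers, Ibsp was above it on 1 array, Dmp1 on 5, Bglap on 8 and Sp7 on 12.

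Sequences at the start of the members were searched for letters of the binding units of the heat shock factors, the known route by which stress raises many such genes. Those shown are of the 4 genes with a match before the start. RefSeq promoters (assembly GRCm38.p6) were found for 6 of the 10 genes, namely Hspa1a, Hspa1b, Hspb1, Hspb8, Dnajb1 and Hsph1. The 250 bases before the start of 4 of them are given 5′ to 3′, with capitals for matches to 2 facing heat shock units (GAANNTTC or TTCNNGAA, each of which reads the same on both strands).
Hspa1a (chr17:34972157-34972406, minus strand): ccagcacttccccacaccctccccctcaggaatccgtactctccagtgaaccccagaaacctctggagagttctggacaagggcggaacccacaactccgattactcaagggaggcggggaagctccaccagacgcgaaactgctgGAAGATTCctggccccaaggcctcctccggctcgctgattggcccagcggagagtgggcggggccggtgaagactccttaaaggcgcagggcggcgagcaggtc
Hspa1b (chr17:34959239-34959488, minus strand): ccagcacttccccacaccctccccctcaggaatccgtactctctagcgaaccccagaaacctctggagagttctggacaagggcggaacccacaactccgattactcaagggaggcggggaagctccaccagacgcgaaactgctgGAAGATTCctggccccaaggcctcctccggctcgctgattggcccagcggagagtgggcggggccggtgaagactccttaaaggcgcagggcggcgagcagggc
Hspb1 (chr5:135887669-135887918, plus strand): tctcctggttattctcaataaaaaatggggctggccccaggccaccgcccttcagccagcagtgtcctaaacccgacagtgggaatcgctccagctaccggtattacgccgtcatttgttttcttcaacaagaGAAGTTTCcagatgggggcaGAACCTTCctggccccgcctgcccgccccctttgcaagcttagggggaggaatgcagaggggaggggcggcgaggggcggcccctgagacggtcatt
Hsph1 (chr5:149636337-149636586, minus strand): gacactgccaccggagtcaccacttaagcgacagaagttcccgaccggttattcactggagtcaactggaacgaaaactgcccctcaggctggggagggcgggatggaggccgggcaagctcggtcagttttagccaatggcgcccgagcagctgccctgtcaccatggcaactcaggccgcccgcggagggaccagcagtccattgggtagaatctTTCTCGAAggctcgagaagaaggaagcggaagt
Hspa1a and Hspa1b, which lie next to each other on chromosome 17, shared 247 of these 250 bases without a gap (98.8%), and both held GAAGATTC at position -104, counted from the start as 1. Hspb1 held GAAGTTTC at -117 and GAACCTTC at -97. In the Hsph1 window shown, TTCTCGAA began at -33, and a match to 3 alternating units, which contains 2 overlapping matches to the shorter motif, lay after the start at 37. Hspb8 held GAAGTTTC at 3, after its start, and Dnajb1 had no match in its 2 windows of 300 bases. Matches to 2 units were thus present in 5 of the 6 genes and in 15.1% of all 32851 promoter windows of the table, and matches to 3 units in 1 gene and in 0.603% of windows. The core of the antioxidant response element (TGACNNNGC, or GCNNNGTCA on the other strand) was found in Hsph1, as GCTCGGTCA at -132 and GCCCTGTCA at -96 of the window shown, and in Dnajb1, as GCTGCGTCA at -15, against 12.4% of all windows. The letters TATAAA were in 0 of the 6 genes and in 13.6% of windows. A match describes the letters of this window and does not show a site in use.

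Differentiation changed most of the chaperone probes in control cells, and those that passed the test fell, apart from the small heat shock proteins, which rose. Between day 0 and day 2, 3 of the 16 tested probes rose and 11 fell in siControl cells, where 24.6% of all tested probes rose and 28.7% fell. Those that rose were the probes of the 3 small heat shock proteins, Hspb1, Hspb2 and Hspb8, and those that fell belonged to Hspa1b, Hspa8, Hsp90aa1, Dnajb1 and Hsph1. With a fold change of at least 2 as well, Hspb2 alone rose, against 10.5% of all probes, and the 3 Hsph1 probes fell, against 9.46%. The median log2 fold change of the 16 probes was -0.66, beside 0.00 over all tested probes. It cannot be set beside the medians of the partner lists below, which use 1 probe a gene. By leading probe, the negative values ran from -0.16 (Hsp90ab1, not passing) to -1.23 (Hsph1), and the 3 small heat shock proteins were at 0.24 to 2.73. In this bulk RNA, fewer cells with a transcript and less of it in each cell cannot be told apart.

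**Figure D1:**
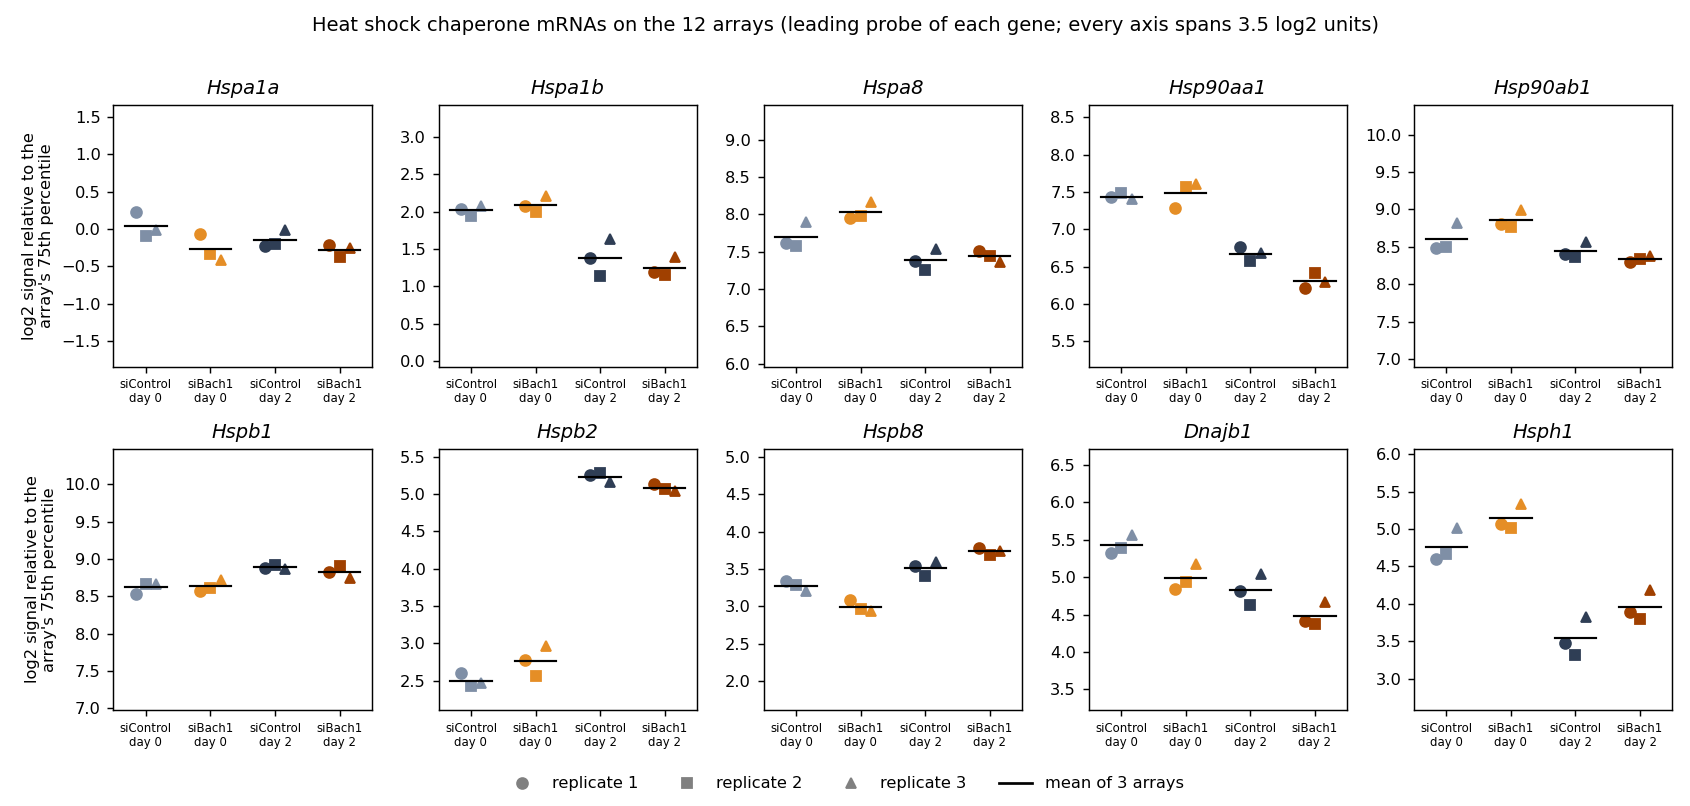
Log2 signal relative to the 75th percentile of the array (vertical axes, each 3.5 units high) for the leading probe of the 10 chaperone genes in the 4 groups, with a marker shape for each replicate number and a line at the mean of 3 arrays. Hspb2 sits between 2.43 and 2.97 at day 0 and between 5.04 and 5.28 at day 2, whereas Hsph1, Hsp90aa1 and Hspb1 show the smaller steps described in the text.

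Of the near-identical pair of stress-inducible HSP70 genes, the Hspa1b probe fell and the Hspa1a probe did not pass the test. Hspa1b gave 2.03, 1.94 and 2.08 in siControl cells at day 0 and 1.38, 1.14 and 1.64 at day 2. All day 2 arrays were below all day 0 arrays, and the log2 fold change was -0.63 (SE 0.13, limma adjusted p = 0.0017). In siBach1 cells the values were 2.08, 1.99 and 2.21 at day 0 and 1.19, 1.15 and 1.39 at day 2, again without overlap, with a log2 fold change of -0.85 (0.13, adjusted p = 0.00022). In the order of its levels, the 2 siRNAs overlapped on each day and only the days were apart.

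Hspa1a, the other heat-inducible HSP70 gene, gave 0.22, -0.09 and -0.01 in siControl cells at day 0, and -0.23, -0.20 and -0.02 followed at day 2. The arrays of these groups overlapped, as did every pair of neighbouring groups in the order of its levels. Its log2 fold change with differentiation was -0.19 in siControl cells (95% interval -0.45 to 0.08, limma adjusted p = 0.21) and -0.01 in siBach1 cells (-0.27 to 0.26, adjusted p = 0.97), so that neither passed.

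Hspa8 encodes HSC70, the constitutive HSP70 of most cells, and its 4 probes all fell. Probe A_55_P2909278 gave 7.49, 7.43 and 7.62 in siControl cells at day 0 and 6.79, 6.65 and 6.94 at day 2, and the groups did not overlap. The 3 probes other than the leading one were close to each other, with log2 fold changes of -0.72, -0.69 and -0.73 in siControl cells (limma adjusted p 0.0001, 0.00092 and 0.00011) and of -0.81, -0.76 and -0.79 in siBach1 cells. The leading and brightest probe, A_55_P2069721, changed less. It gave 7.62, 7.58 and 7.90 at day 0 and 7.37, 7.26 and 7.54 at day 2 in siControl cells, a log2 fold change of -0.31 (SE 0.11, adjusted p = 0.039), and -0.60 (adjusted p = 0.0011) in siBach1 cells. This siControl call was the least certain of the Hspa8 calls: over the alternatives its adjusted p lay between 0.0072 and 0.14, and it failed without siControl day 0 replicate 3 (-0.21, 0.14), without siControl day 2 replicate 1 (-0.30, 0.091) or replicate 2 (-0.25, 0.13), and, narrowly, without siBach1 day 0 replicate 2, siBach1 day 2 replicate 1 or siBach1 day 2 replicate 2 (0.053). The siControl call was also lost with no filter on dim probes (0.13), with only the arrays of the comparison (0.088) and with the study's t-test after Benjamini-Hochberg (0.13). Quantile normalization ended both calls of the leading probe, with -0.23 in siControl cells (adjusted p = 0.075) and -0.16 in siBach1 cells (adjusted p = 0.19).

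Of the HSP90 genes, the inducible Hsp90aa1 fell on both probes with either siRNA, and the constitutive Hsp90ab1 passed in siBach1 cells and not in siControl cells. The leading Hsp90aa1 probe, A_55_P2796341, gave 7.43, 7.48 and 7.40 in siControl cells at day 0 and 6.76, 6.58 and 6.68 at day 2, a log2 fold change of -0.76 (SE 0.10, limma adjusted p = 9.7e-05). In siBach1 cells it gave 7.28, 7.56 and 7.61 at day 0 and 6.21, 6.41 and 6.30 at day 2, a log2 fold change of -1.17 (0.10, adjusted p = 4.8e-06). The days were apart in both, and siBach1 day 2 was the lowest of the 4 groups, below every siControl day 2 array. The other tested probe, A_55_P2740832, changed by -0.96 (0.17, adjusted p = 0.00076) and -1.33 (0.17, adjusted p = 7.3e-05).

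Hsp90ab1, the HSP90 made in unstressed cells, gave 8.48, 8.50 and 8.82 in siControl cells at day 0 and 8.40, 8.36 and 8.56 at day 2, which overlapped. Its log2 fold change was -0.16 (95% interval -0.40 to 0.08, limma adjusted p = 0.24). In siBach1 cells it gave 8.80, 8.77 and 8.99 at day 0 and 8.30, 8.34 and 8.38 at day 2, with all day 2 arrays lower and a log2 fold change of -0.52 (SE 0.11, adjusted p = 0.0021). A test of the difference between these changes gave -0.36 (-0.70 to -0.01) and did not pass (adjusted p = 0.21), although it did with slide as a block (0.039).

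The HSP70 partners among the members, Hsph1 and Dnajb1, also fell. Hsph1, the HSP110 protein that releases ADP from HSP70, had the largest falls among the members in siControl cells. Its leading probe, A_55_P2176963, gave 4.60, 4.67 and 5.02 at day 0 and 3.48, 3.31 and 3.82 at day 2, with the days well apart and a log2 fold change of -1.23 (SE 0.17, limma adjusted p = 0.00012), a 2.34-fold fall. Its other probes changed by -1.31 (0.16, adjusted p = 5.5e-05) and -1.29 (0.19, adjusted p = 0.00024). In siBach1 cells the leading probe gave 5.07, 5.02 and 5.34 at day 0 and 3.89, 3.79 and 4.18 at day 2, and the 3 log2 fold changes were -1.19, -1.24 and -1.09. Dnajb1, the J-domain protein that delivers substrates to HSP70 in the heat shock response, gave 5.33, 5.39 and 5.56 in siControl cells at day 0 and 4.82, 4.63 and 5.04 at day 2, a log2 fold change of -0.59 (0.14, adjusted p = 0.0037) without overlap. In siBach1 cells it gave 4.84, 4.93 and 5.18 and then 4.41, 4.38 and 4.67, a log2 fold change of -0.50 (0.14, adjusted p = 0.0096). That last call was lost with quantile normalization (-0.20, adjusted p = 0.2).

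The small heat shock proteins went the other way. Hspb2, a small heat shock protein made mainly in muscle and heart, gave 2.61, 2.43 and 2.47 in siControl cells at day 0, and 5.25, 5.28 and 5.16 followed at day 2. The days were far apart, with a log2 fold change of 2.73 (SE 0.11, limma adjusted p = 3.2e-08), a 6.62-fold rise. In siBach1 cells it gave 2.78, 2.56 and 2.97 and then 5.13, 5.06 and 5.04, a log2 fold change of 2.31 (0.11, adjusted p = 1e-07) or 4.95-fold. The difference between the rises, -0.42 (95% interval -0.75 to -0.09), did not pass (adjusted p = 0.13, and 0.068 to 0.43 over the alternatives). Cryab, the alphaB-crystallin gene, is its neighbour in the genome.

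Hspb8, which works with Bag3 in the autophagy of damaged sarcomere proteins, gave 3.34, 3.29 and 3.20 in siControl cells at day 0, and 3.54, 3.40 and 3.60 followed at day 2. The day 2 arrays were all higher, by a log2 fold change of 0.24 (SE 0.08, limma adjusted p = 0.03). This call failed without siControl day 0 replicate 2 (0.24, adjusted p = 0.064) or replicate 3 (0.20, 0.098) and without siControl day 2 replicate 1 (0.22, 0.081) or replicate 3 (0.20, 0.095). In siBach1 cells the values were 3.08, 2.97 and 2.94 at day 0 and 3.78, 3.69 and 3.74 at day 2, so that these groups were the lowest and the highest of the 4, with no overlap between any neighbours. The log2 fold change there was 0.74 (0.08, adjusted p = 2.5e-05), a 1.67-fold rise. It passed under every alternative fit, although not with the 2-fold limit.

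Hspb1, the small heat shock protein HSP25 of the mouse, which binds unfolded proteins and actin filaments, gave 8.53, 8.67 and 8.67 in siControl cells at day 0 and then 8.88, 8.92 and 8.87 at day 2. The rise was small and free of overlap, at 0.27 (SE 0.08, limma adjusted p = 0.015), and it failed without siControl day 0 replicate 1 (0.22, adjusted p = 0.064). In siBach1 cells it gave 8.57, 8.61 and 8.72 and then 8.82, 8.91 and 8.74, with a log2 fold change of 0.19 that did not pass (adjusted p = 0.061). It passed with replicate number as a block (0.041), with a robust prior (0.026) and without siBach1 day 0 replicate 3 (0.23, 0.041) or siBach1 day 2 replicate 3 (0.23, 0.047). The scaling mattered for this bright probe, since quantile normalization gave 0.46 (adjusted p = 0.00031).

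In siBach1 cells 2 probes rose and 12 fell, where 23.8% of all tested probes rose and 32.3% fell. With a fold change of at least 2, Hspb2 rose, against 10.9% of all probes, and 5 probes fell, the 3 of Hsph1 and the 2 tested of Hsp90aa1, against 9.59%. The median over the member probes was -0.77, beside -0.07 over all probes, and genes with several probes again weighed more in it. The probes that rose were those of Hspb2 and Hspb8.

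**Figure D2:**
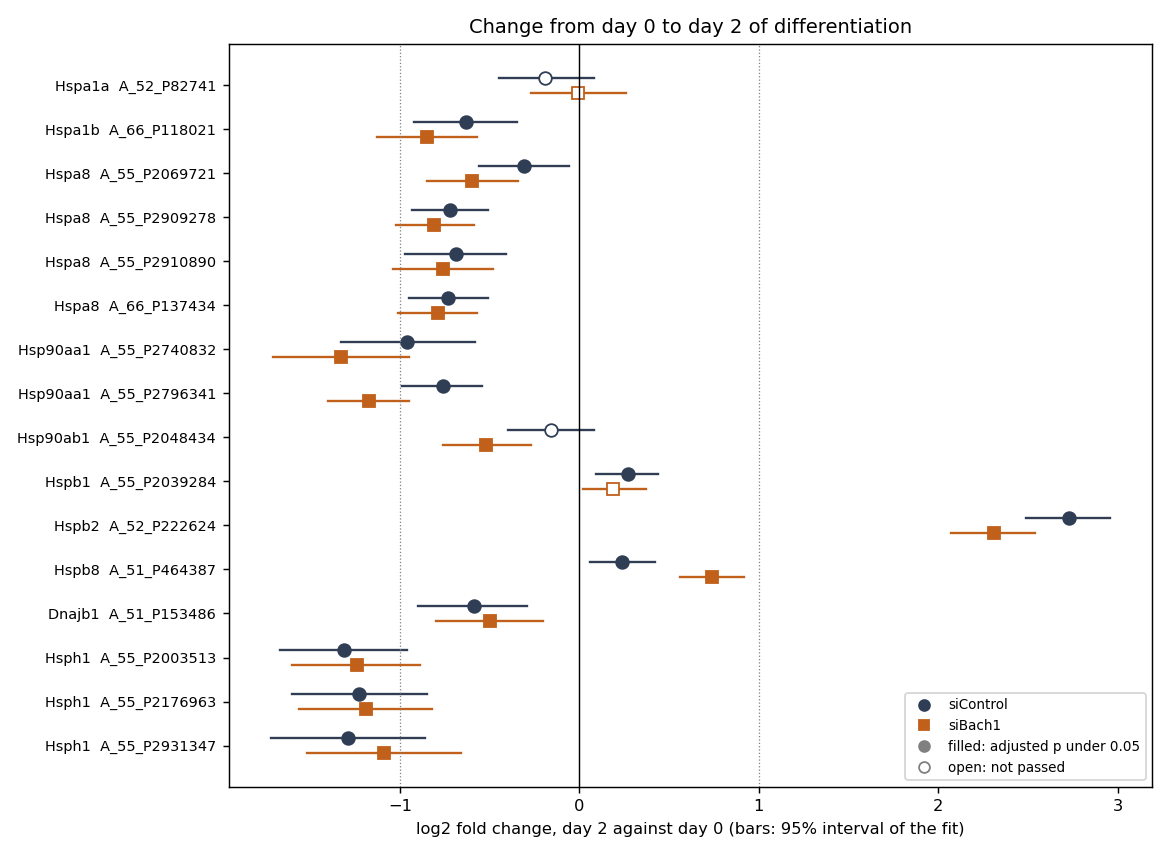
Log2 fold change from day 0 to day 2 (horizontal axis) of the 16 tested chaperone probes in siControl (circles) and siBach1 cells (squares), with bars for the 95% interval of the fit, filled symbols where the adjusted p was under 0.05 and dotted lines at a fold change of 2. Hspb2 stands at 2.73 and 2.31, and the Hsph1 probes lie between -1.31 and -1.09.

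After Bach1 silencing few chaperone probes passed the test, and their log2 fold changes stayed within 0.44 of 0. The silencing comparisons use the same arrays as those of differentiation. At day 0, 0 of the 16 probes were higher and 1 was lower by the test, against 8.8% and 8.32% of all tested probes. The log2 fold changes of the 16 probes lay between -0.44 and 0.38 with a median of 0.22, beside 0.09 over all probes. By leading probe, Hspa8, Hsph1, Hsp90ab1 and Hspb2 were at 0.33, 0.38, 0.25 and 0.27. Hspa1b, Hsp90aa1 and Hspb1 were at 0.08, 0.04 and 0.01, and Hspa1a, Hspb8 and Dnajb1 at -0.31, -0.28 and -0.44. Samples of the same replicate number varied together, and with this number as a block 7 member probes were higher and 2 lower, against 16.2% and 11.3% of all probes. The 7 were probes of Hspa8, Hsph1 and Hsp90ab1 alone, so that they are not separate genes. The arrays of the siRNAs did not overlap on 5 probes that were higher and 2 that were lower in siBach1 cells, against 21.9% and 15.4%. The 5 were probes of Hspa8 and Hsph1 alone. None of these changes reached a fold change of 2.

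The call at day 0 was Hspb8, at 3.34, 3.29 and 3.20 in siControl and 3.08, 2.97 and 2.94 in siBach1 cells. All siBach1 arrays were lower, by a log2 fold change of -0.28 (SE 0.08, limma adjusted p = 0.04, and 0.019 with the block), a 1.21-fold difference. The call held when siControl day 0 replicate 3, siControl day 2 replicate 2 or 3, or siBach1 day 0 replicate 1 was left out and failed without any of the other 8 arrays, with adjusted p-values from 0.031 to 0.14 and log2 fold changes from -0.32 to -0.25 over the 12 fits.

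Dnajb1 had the largest difference at day 0, with 5.33, 5.39 and 5.56 in siControl and 4.84, 4.93 and 5.18 in siBach1 cells and no overlap. Its log2 fold change of -0.44 (95% interval -0.74 to -0.14) just missed the threshold (limma adjusted p = 0.051) and passed with the block (0.0034). Within the replicate numbers the differences were -0.48, -0.45 and -0.38. The adjusted p lay between 0.0018 and 0.17 over the alternatives, and 10 of 22 gave the call. It was reached without siControl day 2 replicate 2 (0.041) or 3 (0.04), siBach1 day 0 replicate 3 (-0.54, 0.039) or siBach1 day 2 replicate 3 (0.046). The scaling mattered too, with quantile normalization at -0.51 (0.019) and a normexp correction at -0.51 (0.0079). A robust limma-trend (0.027) and a slide block (0.0018) also gave it.

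The members that were higher at day 0 passed only with a change of the fit such as the block. The Hspa8 probes were higher by 0.33, 0.22, 0.26 and 0.31, with limma adjusted p from 0.057 to 0.19 and from 0.018 to 0.041 with the block. Hsph1 was higher by 0.38 on its leading probe (adjusted p = 0.15, and 0.0049 with the block) and by 0.31 on A_55_P2003513 (0.21, and 0.013), and the third probe gave 0.22 (0.5, and 0.4). Hsp90ab1 was higher by 0.25 (0.14, and 0.03). Within the replicate numbers the leading Hsph1 probe differed by 0.47, 0.35 and 0.32, and Hsp90ab1 by 0.32, 0.27 and 0.16, each in the same direction in all 3. Without siControl day 0 replicate 3, the highest siControl array for these genes, Hspa8 probes A_55_P2069721 (0.43, adjusted p = 0.032) and A_66_P137434 (0.38, 0.036) and Hsp90ab1 (0.36, 0.04) passed. Probe A_66_P137434 also passed without siControl day 2 replicate 2 (0.035) or 3 (0.048).

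Some members did not pass at day 0 in either fit. Hspa1a differed by -0.31 (95% interval -0.58 to -0.05, limma adjusted p = 0.099, and not under 0.05 with the block), and it passed without siBach1 day 0 replicate 1 (-0.42, adjusted p = 0.047). Hspa1b differed by 0.08 (-0.21 to 0.36), Hspb1 by 0.01 (-0.16 to 0.19) and the leading Hsp90aa1 probe by 0.04 (-0.18 to 0.27), intervals that leave out a fold change of 2. Hspb2 was at 0.27 (0.03 to 0.50, adjusted p = 0.11), and it passed without siBach1 day 0 replicate 2 (0.37, 0.034).

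**Figure D3:**
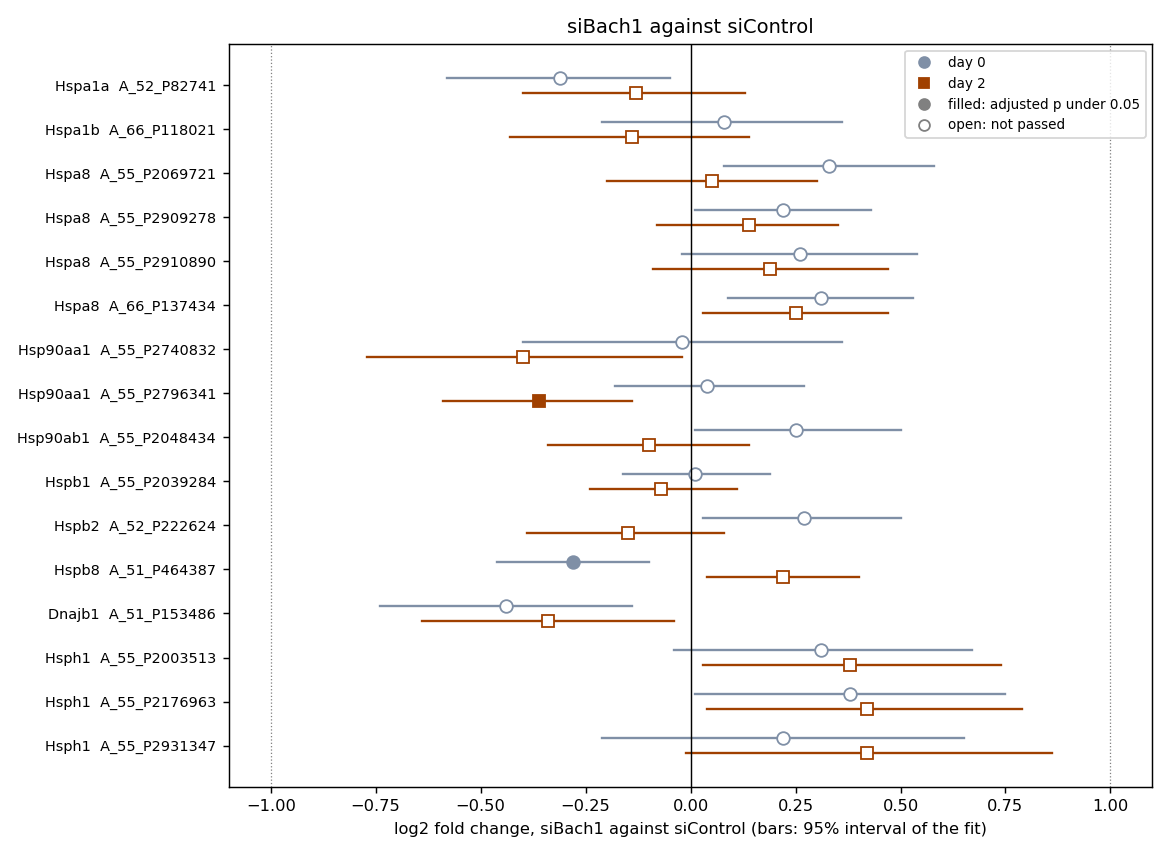
Log2 fold change of siBach1 against siControl (horizontal axis) of the 16 tested chaperone probes at day 0 (circles) and day 2 (squares), with bars for the 95% interval of the fit and filled symbols where the adjusted p was under 0.05. All values lie between -0.44 and 0.42, and the filled ones are Hspb8 at day 0 (-0.28) and the leading Hsp90aa1 probe at day 2 (-0.36).

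At day 2, 0 probes were higher and 1 was lower in siBach1 cells, against 5.75% and 6.26% of all tested probes. The log2 fold changes lay between -0.40 and 0.42, and the median of -0.01 equalled that over all probes. With the block 3 member probes were higher and 3 lower, against 9.78% and 11.6%, and the arrays did not overlap for 3 and 3, against 15.7% and 17.1%. The block calls were of Hspa8 and Hsph1 (higher) and of Hsp90aa1 and Dnajb1 (lower) alone. The probe that passed was the leading one of Hsp90aa1, at 6.76, 6.58 and 6.68 in siControl and 6.21, 6.41 and 6.30 in siBach1 cells. All siBach1 arrays were lower, by a log2 fold change of -0.36 (SE 0.10, limma adjusted p = 0.043, and 0.032 with the block), a 1.29-fold difference. The call held without siBach1 day 0 replicate 1 or replicate 3 and failed without any of the other 10 arrays, with adjusted p-values from 0.025 to 0.15 over the 12 fits, and quantile normalization gave -0.22 (0.14). The other Hsp90aa1 probe was at -0.40 (0.17, adjusted p = 0.16), and it passed with the block (0.037).

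The remaining members at day 2 did not pass in the fit of all arrays without a block, and some passed under an alternative. Dnajb1 was at 4.82, 4.63 and 5.04 in siControl and 4.41, 4.38 and 4.67 in siBach1 cells, with an overlap of the groups but a difference of -0.41, -0.25 and -0.37 within the replicate numbers (log2 fold change -0.34, limma adjusted p = 0.13, and 0.013 with the block). Hsph1 was at 3.48, 3.31 and 3.82 against 3.89, 3.79 and 4.18 on its leading probe, also overlapping, with within-number differences of 0.41, 0.48 and 0.36 (log2 fold change 0.42, adjusted p = 0.14, and 0.0051 with the block). Hsph1 probe A_55_P2003513 gave 0.38 (0.15, and 0.0078 with the block), and A_55_P2931347 gave 0.42 (0.19), which passed without siControl day 2 replicate 1 (0.65, 0.036). Of the Hspa8 probes, A_66_P137434 was higher by 0.25 (0.13, and 0.046 with the block), and the others gave 0.05, 0.14 and 0.19. Hspa1a, Hspa1b, Hsp90ab1, Hspb1 and Hspb2 differed by -0.13, -0.14, -0.10, -0.07 and -0.15, with adjusted p from 0.4 to 0.66 and none under 0.05 with the block. Quantile normalization brought A_66_P137434 (0.36, adjusted p = 0.03), Hspb8 (0.31, 0.036) and the leading Hsph1 probe (0.51, 0.049) past the threshold.

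**Figure D4:**
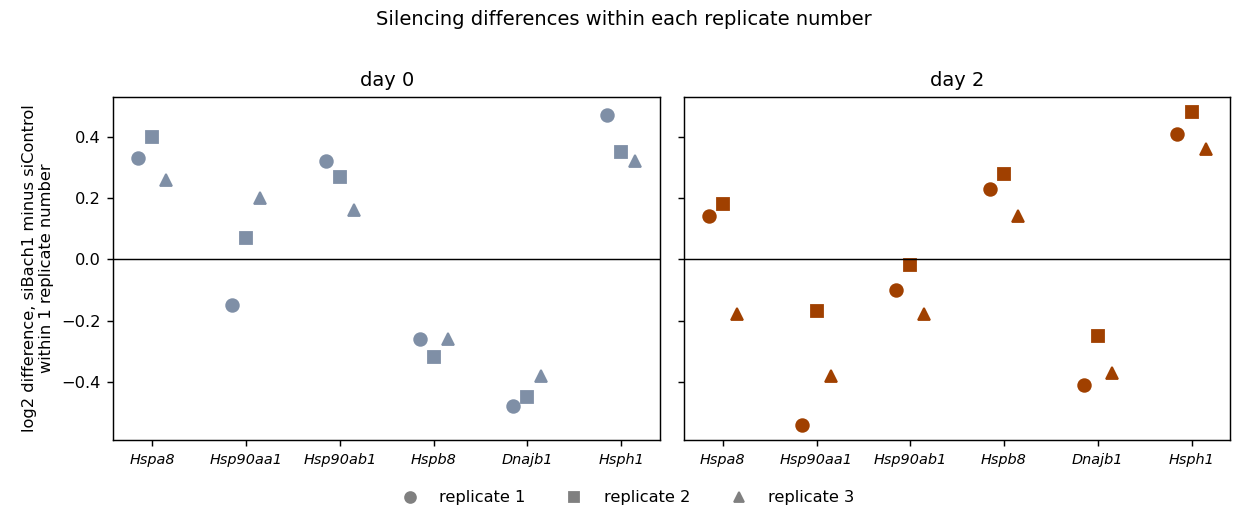
Log2 difference between siBach1 and siControl within each replicate number (vertical axis; marker shapes for replicates 1 to 3) at day 0 and day 2, for the leading probe of the 6 genes of which at least 1 probe passed on some day with replicate number as a block. Dnajb1 lies below 0 and Hsph1 above 0 in all 3 replicates on both days, and Hspb8 lies below 0 at day 0 and above 0 at day 2.

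The silencing effects at the 2 days were compared directly, a test that uses the same arrays as the comparisons above. It was passed with a positive value by 1 of the 16 member probes and with a negative value by 0, against 2.39% and 2.2% of all tested probes. The median of the member probes was -0.07, as over all probes. The 1 was Hspb8, with a silencing effect of -0.28 at day 0 and of 0.22 (limma adjusted p = 0.11, and 0.055 with the block) at day 2, where siControl gave 3.54, 3.40 and 3.60 and siBach1 3.78, 3.69 and 3.74. The difference was 0.50 (SE 0.11, 95% interval 0.24 to 0.75, limma adjusted p = 0.039, and 0.019 with the block). It held without siControl day 2 replicate 3 or siBach1 day 0 replicate 1 and failed without any of the other 10 arrays, where it lay between 0.44 and 0.54, and its adjusted p was 0.22 without the filter on dim probes. For Hsp90aa1 the difference was -0.41 on the leading probe (adjusted p = 0.13) and -0.37 on the other (0.41).

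The other genes of the chaperone system were taken from 7 lists of 81 genes, 74 of which were tested on 1 probe each. In siControl cells 17 of the 74 rose and 36 fell with differentiation, with a median of -0.28, where 27.7% of all 15642 genes rose and 30.1% fell, with a median of 0.01. In siBach1 cells 14 rose and 41 fell, with a median of -0.38, where 26.7% and 33.2% of all genes did so, with a median of -0.06. Values below give siControl first and siBach1 second, and each is a log2 fold change that passed unless its adjusted p is printed as not passing.

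The chaperonin TRiC/CCT, the ring that folds actin and tubulin, and its partner prefoldin had 12 of 14 genes lower with either siRNA. The ring subunits Cct3 (-0.99 and -1.20), Cct7 (-0.87 and -1.20) and Cct6a (-0.87 and -1.17) and the prefoldin subunit Pfdn4 (-0.99 and -1.17) were among the largest falls. Of 19 HSP90 cochaperones, 10 and 15 fell. The immunophilins Fkbp5 (-1.66 and -1.37), Fkbp4 (-1.19 and -1.47) and Ppid (-1.46 and -1.74) led these. Unc45b, the cochaperone that folds muscle myosin with HSP90, rose by 6.09 and 6.57 (limma adjusted p = 9.9e-09 and 1.4e-08) and was the 1 riser of this list.

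The small heat shock proteins outside the 10 members mostly rose, 5 of 6 in siControl and 4 in siBach1 cells. Hspb3, the partner of Hspb2 in muscle, rose by 5.32 and 4.64, although its day 0 signal was above background on only 2 of 3 siControl and 1 of 3 siBach1 arrays. Hspb7, a small heat shock protein of heart and skeletal muscle, rose by 5.08 and 4.57 and Cryab by 0.91 and 0.97. Hspb6 fell, with -1.27 and -0.88.

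The HSP70 and HSP110 relatives rose for 1 of 7 with either siRNA and fell for 4 in siControl and 3 in siBach1 cells. Hspa14, which works at the ribosome, fell with -1.10 and -1.08, and Hspa4, an HSP110 relative, with -0.71 and -0.96. Hspa12a fell in siControl cells (-1.03) and gave -0.19 in siBach1 cells (limma adjusted p = 0.34, not passing), and Hspa2 rose by 0.71 and gave 0.13 (0.39, not passing). Hspa1l gave 0.64 (0.15, not passing) and rose by 1.06, from a day 0 signal that was above background on 1 of 3 siBach1 arrays.

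J-domain proteins were mixed, with 5 higher and 3 lower of 12 in siControl and 4 and 4 in siBach1 cells. Dnajb5 rose by 1.89 and 1.15 and Dnaja4 by 1.43 and 1.53, and the ribosome-bound Dnajc2 fell, with -1.14 and -1.06. The BAG proteins and other HSP70 partners had 1 of 10 higher and 4 lower with either siRNA. Bag1, a nucleotide exchange factor of HSP70, rose by 0.64 and 0.41. Bag2 (-0.82) and Bag4 (limma adjusted p = 0.00043) fell in siControl cells and gave -0.27 (limma adjusted p = 0.099) and -0.10 (0.64) in siBach1 cells, neither passing. Hspbp1 (-0.45 and -0.88) and the ubiquitin ligase gene Stub1 (-0.35 and -0.62) fell with either siRNA, and St13 gave -0.19 (0.06, not passing) and -0.43.

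Among 6 heat shock factor genes, which here include their binding partners, 3 rose and 2 fell with either siRNA. Hsbp1 rose by 0.69 and 0.49, Hsf4 by 0.42 and 0.97, and Hsf2bp by 1.43 and 1.36, the last from a day 0 signal above background on 2 of 3 arrays with each siRNA. Hsf5 fell at least 2.25-fold in siControl cells, where it was not well above background on the day 2 arrays (limma adjusted p = 0.00022), and by a log2 fold change of -1.21 in siBach1 cells. Hsf1, the factor named above, was picked after its values were seen, and it changed by -0.43 (limma adjusted p = 0.02) and -0.55 (0.0053).

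Silencing changed 4 of the 74 partners upwards and 5 downwards at day 0, where 10.1% and 9.85% of all genes were higher and lower, and 3 upwards and 8 downwards at day 2, where 6.38% and 7.4% were. At day 0 the higher genes were Hspa2 (log2 fold change 0.84, limma adjusted p = 0.00086), Dnajb6 (0.44, 0.0046), Ahsa2 (0.43, 0.025) and Dnaja4 (0.40, 0.021). The lower ones were Hspb7 (-1.40, 0.0073), Vbp1, a prefoldin subunit (-0.86, 0.00048), Hspa12a (-0.66, 0.017), Bag4 (-0.60, 0.032) and Fkbp5 (-0.52, 0.014).

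At day 2 Dnaja4 was again higher (0.50, limma adjusted p = 0.011), and Hsf5 was at least 1.25-fold higher (adjusted p = 0.016), with 2 of 3 siBach1 and 0 of 3 siControl arrays above background. Hspb7 (-1.92, 0.0026), Hspb3 (-0.93, 0.024), Vbp1 (-0.63, 0.0051), Dnajb5 (-0.54, 0.005), Dnajc7 (-0.42, 0.01), Pfdn6 (-0.38, 0.0074) and Pfdn1 (-0.35, 0.029) were lower. The other genes counted at day 2 were not among the 3 largest changes of their list and are not named. The test of the difference between days was passed with a negative value by 4 of the 74, namely Dnajb5, Dnajc7, Cct8 and Pfdn6, at -0.74, -0.66, -0.44 and -0.57, and with a positive value by 0, where 2.74% and 3.08% of all genes had a negative and a positive call.

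**Figure D5:**
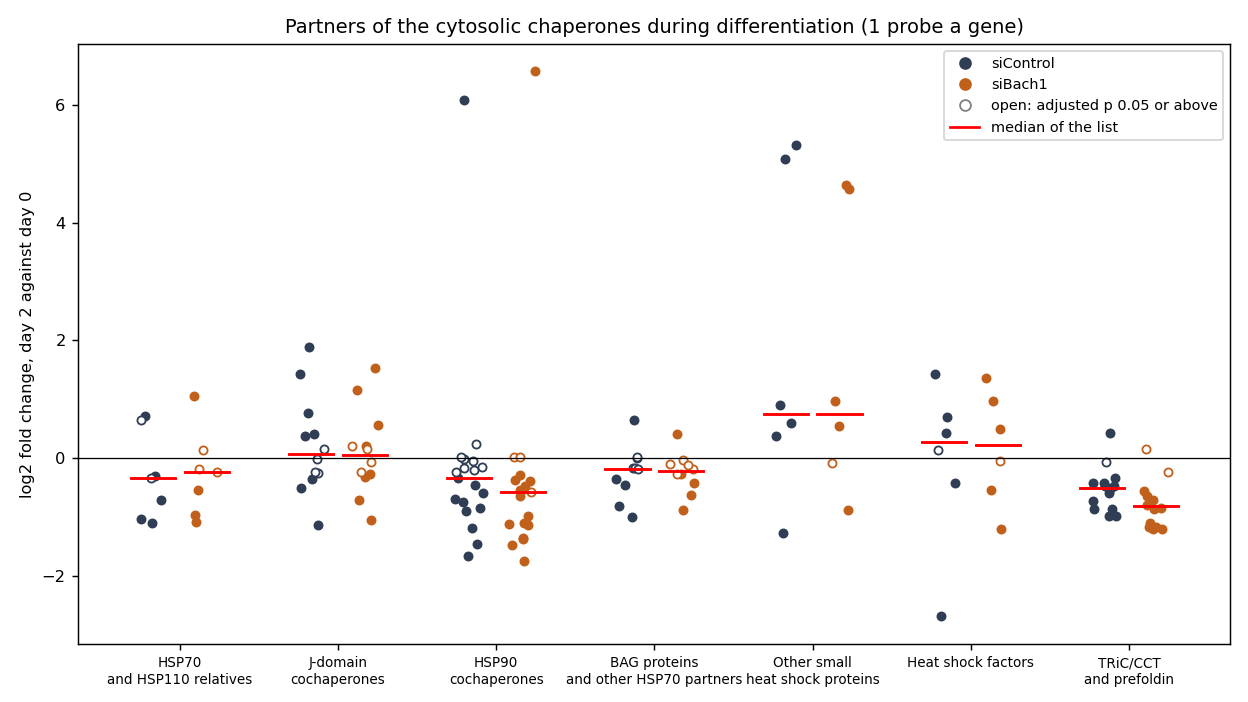
Log2 fold change from day 0 to day 2 (vertical axis) of 74 genes in 7 lists of chaperone partners, 1 probe a gene, in siControl and siBach1 cells, with open symbols where the adjusted p was 0.05 or above and red lines at list medians. The TRiC/CCT and prefoldin genes lie mostly below 0 with medians of -0.50 and -0.82, and Unc45b, Hspb3 and Hspb7 stand above 4 in both.

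Of the genes with a symbol, those whose pattern over the 12 arrays was most like that of Hspb2 were Cdh13, Tpm1 and Jsrp1, with Pearson's r of 0.998, 0.997 and 0.997 among 15630 genes compared. Those most like Hspa1b were Rnf126, Smg9 and Mns1, at 0.991, 0.988 and 0.988. These are descriptions over arrays that fall into the same 4 groups and rest largely on the difference between the days.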

How the data were processed

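RNA of 12 C2C12 samples was measured on 1-colour Agilent mouse arrays with 62976 spots each, 3 per group. The deposited scanner files hold, per spot, an intensity (Feature Extraction 10.7.3.1 in the file headers, 9.1 in the submitters' processing notes) from which the authors' software had subtracted background. The authors also deposited a table with the raw intensity and a normalized log2 value per probe. The normalized values came within 0.25 of the values used here once the latter were centred on each probe's median over the 12 arrays. The origin of the largest gap was not traced. Here control spots and the 76 to 110 outlier spots an array were removed, log2 values of repeated spots averaged, and the 75th percentile of the array subtracted. Probes well above background on all 3 arrays of a group (29664) entered 1 fit of the 4 groups in limma 3.58.1 (R 4.3.3), with Benjamini-Hochberg adjustment over all of them. The script was tested on simulated data. Files were read with Python 3.11.15, pandas 2.3.3 and numpy 2.4.6.

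Members, gene lists and tests were chosen with earlier results of these data known. Genes of the lists were named where, in a comparison, they were among the up to 3 largest changes of their list that passed, with Hsf1 added after its values were seen, and the 3 genes most like Hspa1b and Hspb2 by Pearson's r over the arrays were named.

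Groups and replicate numbers come from the labels. Arrays of the same number varied together, with residual correlations of 0.142 to 0.595 in all 18 pairs, so that the number was also used as a block. Replicates 1 and 2 lay on 1 slide and replicate 3 on another, and each group had its own column of the slides, so that column and group cannot be told apart. The alternatives were quantile normalization, a normexp correction (offset 50), the deposited normalized values, no filter, a replicate or slide block, a fit to the compared arrays alone, limma-trend with a robust prior, the methods' t-test, a 2-fold limit, each array left out, and, added after the data were seen, differences within each slide. Promoters are from RefSeq (GRCm38.p6), and the scanner files name mm9, from which no coordinates were used.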

Additional observations from a re-analysis of the deposited data

Results flagged for a closer look

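The siBach1 effect on Hspb8 (probe A_51_P464387) differed between the days by the test of the difference itself, at 0.50 on the log2 scale (standard error 0.11, limma adjusted p = 0.039). Within the replicate numbers the siBach1 arrays were lower at day 0 by -0.26, -0.32 and -0.26 and higher at day 2 by 0.23, 0.28 and 0.14. The adjusted p ranged from 0.015 to 0.22 over the alternatives.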

How the results depend on the processing

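Of 31 member results that passed, 23 passed under every alternative fit and 8 lost the call under at least 1, the 2-fold limit not counted. The 14 probes that passed with differentiation in siControl cells were 12 to 14 with an array left out, and the 14 in siBach1 cells 14 to 15. The rule with a 2-fold limit left 4 and 6 of them, and 0 for silencing at day 0, silencing at day 2 and their difference.

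The count for silencing at day 0, 1 probe, became 2 with quantile normalization, 3 with normexp, 4 with a robust limma-trend or the methods' t-test without adjustment, 9 with a replicate block or a slide block, and 0 with no filter, with only the arrays of the comparison or with the t-test after Benjamini-Hochberg, and was 0 to 4 with an array left out. The count at day 2, 1 probe, became 3 with quantile normalization or the unadjusted t-test, 6 with either block and 0 with no filter, only the arrays of the comparison or the adjusted t-test, and was 0 to 1 with an array left out. The test of the difference, 1 probe, gave 0 with no filter, 2 with a slide block, 4 with the unadjusted t-test and 0 to 1 with an array left out. The cause was not tested. The replicate block, which pairs the arrays, changed no other call of a member than those printed above.

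The sign turned for values that did not pass. With quantile normalization silencing gave -0.10 for Hsp90aa1 (A_55_P2796341) and -0.17 for Hspb1 at day 0, and 0.05 for Hsp90ab1 and 0.09 for Hspb1 at day 2, and with normexp -0.02 for Hspb1 at day 0. With an array left out, the day 0 values ran from -0.18 to 0.14 and from -0.02 to 0.14 for Hsp90aa1 and from -0.03 to 0.04 for Hspb1, Hspa8 A_55_P2069721 at day 2 from -0.02 to 0.12, and Hspa1a with differentiation in siBach1 cells from -0.07 to 0.10. The array number and the position on the slide limit all comparisons, and no change in cell number was measured.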
